A study of Homo sapiens with 12 samples.

Results

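Abundant noncoding RNAs made by RNA polymerase III were followed in RNA immunoprecipitation (RIP) libraries of the tagged splicing regulators TDP43 and SRSF3. The RNAs were those of the signal recognition particle (RN7SL1, RN7SL2, RN7SL3, RN7SL4P and RN7SL5P), the 7SK RNA (RN7SK), the RNA of RNase P (RPPH1) and the RNA of RNase MRP (RMRP). They were found by gene symbol, and the entries of a symbol were summed, giving 8 genes with 11 entries among the 60675 genes of the RIP tables. They were chosen by their RIP and input levels in these same libraries, so those levels are a description and carry no test.

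All libraries came from MDA-MB231, an established breast cancer cell line. For the RIPs, cells overexpressed Flag-TDP43 or Flag-SRSF3, tagged versions of a nuclear RNA-binding protein encoded by TARDBP and of a serine- and arginine-rich splicing factor. The Flag tag was pulled down, and each protein had 1 RIP library and 1 input library of total RNA from the same overexpressing cells. No RIP from untagged cells was analysed here. In the knockdown experiment, stable lentiviral hairpins against TDP43 (sh_TDP43), SRSF3 (sh_SRSF3) or a control (sh_control) gave 2 RNA-seq libraries each, and the combined knockdown was not analysed here. The labels name 1 hairpin per target. Whether replicates are separate cultures is unstated, and the knockdown p-values therefore rest on library-to-library spread that could be technical.

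RNA polymerase III makes short, abundant RNAs that mostly work inside stable protein particles. The signal recognition particle (SRP) RNA helps to bring ribosomes that make secreted proteins to the endoplasmic reticulum, and the 7SK RNA holds the transcription elongation factor P-TEFb in an inactive particle. RNase P trims the leader of precursor tRNAs, and the related RNase MRP takes part in the processing of ribosomal RNA and shares most of its proteins with RNase P.

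Levels below are FPKM, which divide fragments by gene length and by the library's total, so that levels of different genes are compared per length. A second deposited RIP table holds a normalised signal of unstated unit for the same 4 libraries. Ratios of RIP over input are given as log2((RIP + 1)/(input + 1)), and a gene counts as higher or lower when the ratio reaches 2-fold. Over the 10040 genes with a mean FPKM of at least 1, the median ratio was -0.00 in the Flag-TDP43 experiment and 0.15 in the Flag-SRSF3 experiment. The FPKM steps of lowly covered genes imply 27664703 to 28436735 reads per RIP or input library. At this depth counting error is small for abundant RNAs, and the 95% Clopper-Pearson intervals below cover that error only. TARDBP was at 80.4 FPKM in the Flag-TDP43 RIP and 14.2 in its input, and SRSF3 was at 91.3 in the Flag-SRSF3 RIP and 54.9 in its input. SRSF3 was also at 83.4 in the Flag-TDP43 RIP and 29.3 in its input, a larger log2 ratio (1.48) than in its own RIP (0.72). Of the line's markers, VIM, CD44 and FN1 were above 4 FPKM in all 4 libraries, SPARC was at no more than 0.592, and ESR1 and PGR were listed at 0. CDH1, ERBB2 and EPCAM were also taken as low markers of the line. CDH1 was at no more than 0.039 FPKM, while ERBB2 was at 3.01 to 6.35 and EPCAM at 1.27 to 3.85.

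The 8 genes took a large part of the input libraries and little of the RIP libraries. They held an estimated 8.84% of the reads of the Flag-TDP43 input and 0.139% of those of its RIP. In the Flag-SRSF3 experiment they held 9.26% of the input reads and 1.16% of the RIP reads. Both inputs were alike, and the Flag-SRSF3 RIP held more of these RNAs than the Flag-TDP43 RIP. In FPKM, 6 of the 8 genes were at least 2-fold lower in the Flag-TDP43 RIP than in its input, as were 13.1% of the 10040 genes. The same number, 6 of 8, were lower in the Flag-SRSF3 RIP, as were 6.78% of the 10040 genes. These counts describe what the genes were chosen for. RN7SL2 and RN7SL3 were the exceptions, and the second table gave other values for both. In that table, 8 of 8 genes were lower in the Flag-TDP43 RIP (13.7% of its 13228 genes) and 7 of 8 in the Flag-SRSF3 RIP (7.14% of them).

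**Figure D1:**
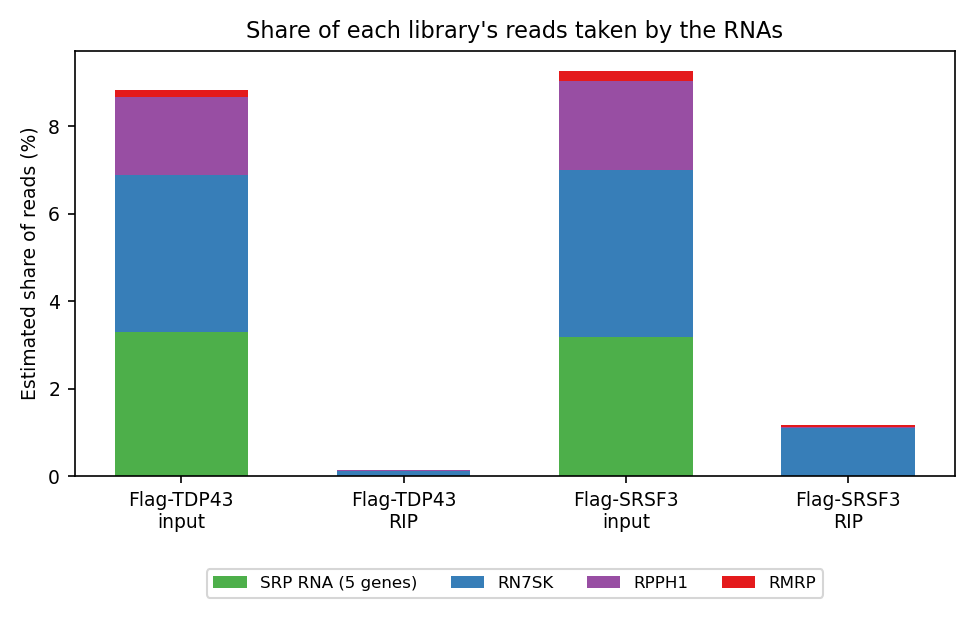
Estimated share of reads (percent, vertical axis from 0) held by SRP RNA, RN7SK, RPPH1 and RMRP in each of the 4 libraries, stacked. SRP RNA is shown without the Metazoa_SRP entries. The bars reach 8.84% and 9.26% in the inputs, 0.139% in the Flag-TDP43 RIP and 1.16% in the Flag-SRSF3 RIP, where RN7SK takes nearly the whole bar.

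**Figure D2:**
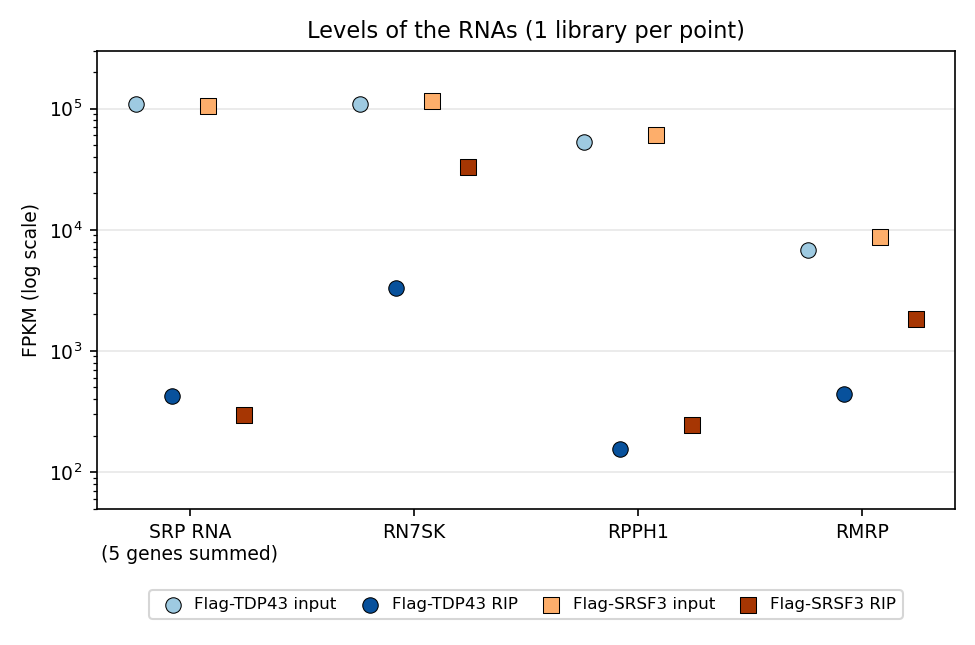
FPKM (log scale) of SRP RNA, RN7SK, RPPH1 and RMRP, with 1 point per library, circles for the Flag-TDP43 experiment and squares for the Flag-SRSF3 experiment. Both inputs sit close together for every RNA, each RIP sits below its input, and the Flag-SRSF3 RIP stands far above the Flag-TDP43 RIP for RN7SK and RMRP.

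SRP RNA is encoded by several near-identical genes, so its reads are best read as a sum over them. Summed over the 5 SRP genes, the level was 429 FPKM in the Flag-TDP43 RIP and 109277 in its input. It was 296 FPKM in the Flag-SRSF3 RIP and 105787 in its input. Both RIP libraries were thus far below both inputs. The log2 ratio was -7.99 in the Flag-TDP43 experiment, with an interval of -8.04 to -7.94, a level 254-fold lower. In the Flag-SRSF3 experiment it was -8.48, with an interval of -8.53 to -8.42, a level 356-fold lower. Only 2 of 10031 other genes had a lower ratio in each experiment. In the Flag-TDP43 experiment these 2 were further SRP RNA entries named Metazoa_SRP, described below, at -8.19 and -9.27. The ratio of the sum was 0.49 higher for Flag-TDP43 than for Flag-SRSF3 in FPKM, but this order depended on the table. The second table gave -8.58 and -7.80, a difference of -0.78, and without RN7SL2 it gave a difference of 0.11. No order of the 2 proteins can be read for SRP RNA.

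RN7SL1, a functional SRP RNA gene on chromosome 14 (ENSG00000276168, GRCh38, 49586580 to 49586878), held most of the sum. It stood at 316 FPKM in the Flag-TDP43 RIP and 81970 in its input. In the Flag-SRSF3 experiment it stood at 210 FPKM in the RIP and 83887 in the input. Its log2 ratios were -8.01 and -8.64, in the order Flag-TDP43 and Flag-SRSF3. The symbol has 2 entries that lie over the same 299 or 300 bases, and the lesser entry (ENSG00000283029) was at 27.1 FPKM in the Flag-TDP43 RIP and at most 0.775 in the other 3 libraries.

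RN7SL4P and RN7SL5P are annotated by RefSeq as pseudogenes of SRP RNA. RN7SL4P (chromosome 3, 15738515 to 15738809) was at 7.04 FPKM in the Flag-TDP43 RIP against 16365 in its input, a log2 ratio of -10.99. It was at 38.2 FPKM in the Flag-SRSF3 RIP against 11730 in its input, a log2 ratio of -8.22. RN7SL5P (chromosome 9, 9442060 to 9442380) was at 78.4 against 10941 FPKM in the Flag-TDP43 experiment, a log2 ratio of -7.11. In the Flag-SRSF3 experiment it was at 48.0 against 10170 FPKM, a log2 ratio of -7.70. RN7SL4P had the lower ratio of these genes in the Flag-TDP43 experiment and RN7SL1 in the Flag-SRSF3 experiment. In the second table the ratios of RN7SL4P were -8.46 and -8.12, closer to those of RN7SL1 (-8.43 and -8.69). No source used here says how reads that match several copies were assigned, so levels of single SRP genes are uncertain.

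RN7SL2 and RN7SL3 show this most. The entry named RN7SL2 (ENSG00000280102) is a model of 80 bases that was at no more than 0.158 FPKM in any library. In the second table the same entry had a signal of 170 in the Flag-TDP43 RIP and 93411 in its input. It had a signal of 255 in the Flag-SRSF3 RIP and 0.534 in its input, which gave log2 ratios of -9.10 and 7.38. The entry was at the level of an abundant RNA in 3 libraries and near 0 in the Flag-SRSF3 input. The entry named RN7SL3 (ENSG00000279868) is a model of 70 bases. It was at 26.9 FPKM in the Flag-TDP43 RIP, at 0.0018 in the Flag-SRSF3 RIP and at about 0 in both inputs. In the second table its log2 ratios were -8.27 and -7.28.

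A reference table of gene names gives the full-length RN7SL2 and RN7SL3 loci to a pair of entries that the files call Metazoa_SRP. The entry for the RN7SL2 locus (ENSG00000274012, chromosome 14, 49862550 to 49862849) was at 232 FPKM in the Flag-TDP43 RIP and 67865 in its input. It was at 279 FPKM in the Flag-SRSF3 RIP and 57253 in its input. The entry for the RN7SL3 locus (ENSG00000278771, chromosome 14, 49853616 to 49853914) was at 2.93 against 2420 FPKM and at 6.27 against 615 FPKM, in the same order. Both entries were therefore low in both RIPs, like the summed genes. With these entries added, the log2 ratios of SRP RNA were -8.08 and -8.13, and the difference between the proteins was 0.06.

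**Figure D3:**
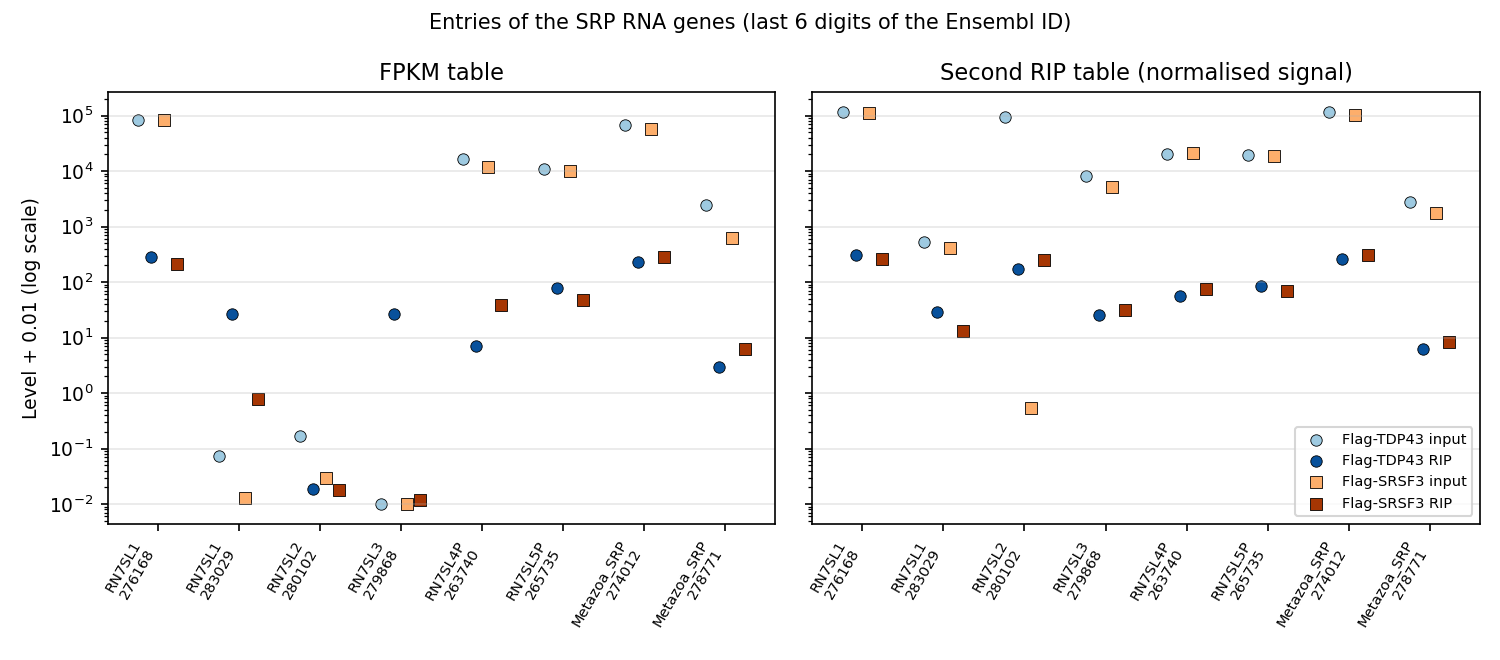
Level plus 0.01 (log scale) of each SRP RNA entry in the FPKM table (left) and in the second table (right), with 1 point per library. In FPKM the RN7SL2 entry lies at the bottom in all libraries, and the RN7SL3 entry does so in all but the Flag-TDP43 RIP (26.9). In the second table both inputs of each entry stand above their RIPs, except RN7SL2 in the Flag-SRSF3 input at 0.534.

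The genes of the SRP proteins and of their receptor gave mixed ratios in the RIPs. Of 8 listed genes, 7 passed the level filter. In the Flag-TDP43 RIP 1 of these was higher and 1 lower, with SRP9 at 1.58 and SRP14 at -1.99, where 15.1% of all genes were higher and 13.1% lower. In the Flag-SRSF3 RIP 1 was higher and 2 were lower, with the receptor subunit SRPRA at 1.02 and SRP9 at -1.34, where 14.1% and 6.78% of all genes were. SRP9 and SRP14 encode the pair of proteins that binds the Alu domain of SRP RNA. SRP9 kept its signs in the second table (1.16 and -1.40). SRPRA had a ratio of 0.37 there in the Flag-SRSF3 RIP, and SRP14 had -2.02 in the Flag-TDP43 RIP.

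RN7SK, the 7SK RNA (ENSG00000202198, chromosome 6, 52995620 to 52995950), had the largest difference between the proteins among the 4 RNAs. It was at 3326 FPKM in the Flag-TDP43 RIP and 108882 in its input. It was at 33194 FPKM in the Flag-SRSF3 RIP and 115621 in its input. The inputs differed by -0.09 on the log2 scale (Flag-TDP43 over Flag-SRSF3), while the RIPs differed by -3.32. RN7SK was 32.7-fold lower in the Flag-TDP43 RIP than in its input, a log2 ratio of -5.03 with an interval of -5.05 to -5.02. It was 3.48-fold lower in the Flag-SRSF3 RIP, a log2 ratio of -1.80 with an interval of -1.81 to -1.79. The difference of the ratios was -3.23 in FPKM and -3.19 in the second table, and 2.47% of the other genes had a lower difference. With 1 library per RIP this difference could not be tested.

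RN7SK was still among the most abundant RNAs of both RIPs. By FPKM it ranked first in both inputs and in the Flag-SRSF3 RIP, and rank 2 in the Flag-TDP43 RIP after SCARNA2, a small Cajal body RNA at 8115 FPKM. Within the inputs the level of RN7SK was 0.996 and 1.09 times that of SRP RNA, for Flag-TDP43 and Flag-SRSF3. Within the RIPs it was 7.76 and 112 times that of SRP RNA. SRP RNA is here the sum of the member genes without the Metazoa_SRP entries. The entry for the RN7SL2 locus alone was at 67865 and 57253 FPKM in the inputs and at 232 and 279 in the RIPs. With these entries added, all of these multiples would be smaller. Of the 11 entries, RN7SK alone carried the deposited label "Bind", and it did so in both label columns of the table. So did 15.4% of all 60675 genes. Only 10040 of these had a mean FPKM of at least 1, and the share among those was not computed. The sources used here do not say how these labels were set.

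**Figure D4:**
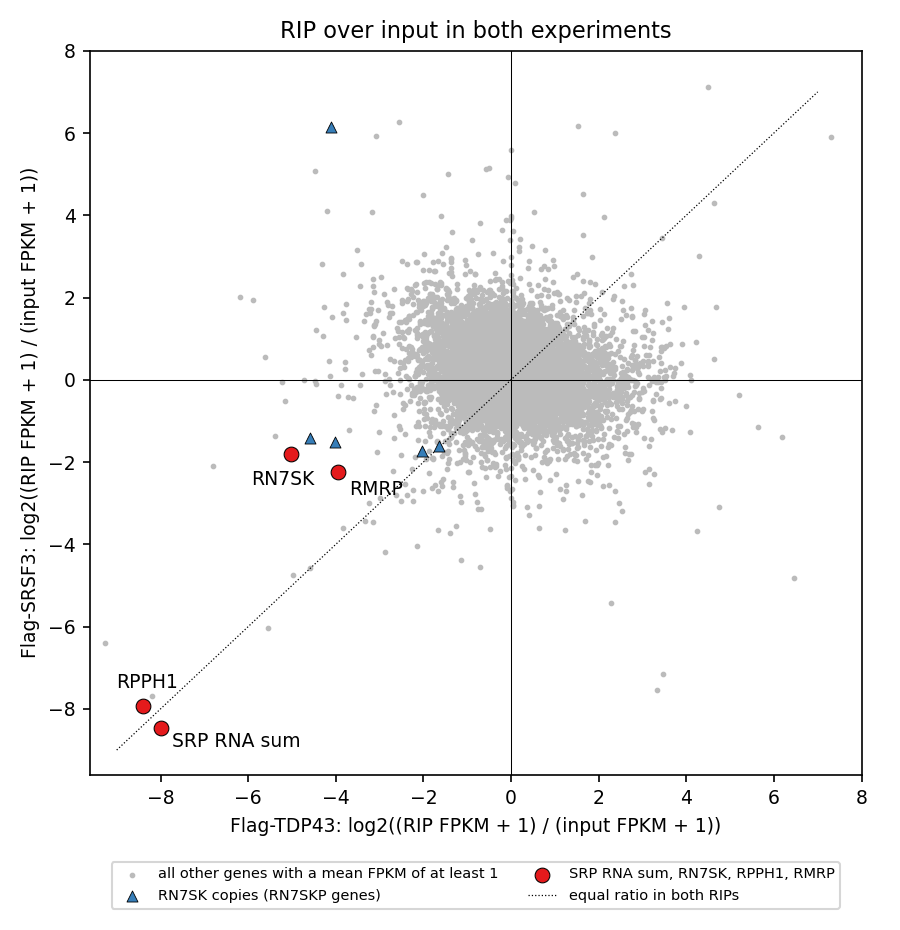
Log2 ratio of RIP over input in the Flag-TDP43 experiment (horizontal) against the Flag-SRSF3 experiment (vertical), with 1 point per gene of mean FPKM at least 1 and the dotted line where both ratios are equal. SRP RNA and RPPH1 lie at the lower left near the line, RN7SK (-5.03 and -1.80) and RMRP (-3.94 and -2.24) lie above it, and 4 of the 5 RN7SK copies lie near RN7SK or the line while RN7SKP71 lies at the top left.

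Pseudogene copies of RN7SK stood at much lower levels, and of 293 copies 5 had a mean FPKM of at least 1. RN7SKP203 was at 108 against 2603 FPKM in the Flag-TDP43 experiment and at 1030 against 2764 in the Flag-SRSF3 experiment, with log2 ratios of -4.58 and -1.42. RN7SKP255 had -4.02 and -1.52, RN7SKP9 had -2.02 and -1.74, and RN7SKP80 had -1.65 and -1.61. RN7SKP71 had -4.10 and 6.14 in FPKM, where its Flag-SRSF3 input was at 0.116, against a signal of 1950 in the second table. These copies share sequence with RN7SK, so reads of RN7SK and of its copies cannot be told apart with certainty. Among 2926 genes with a mean FPKM of at least 10, the nearest to RN7SK by distance in both log2 ratios were HSPA1B (0.55), RN7SKP203 (0.59) and RN7SKP255 (1.05). HSPA1B encodes a heat shock protein, has a near-identical neighbour in HSPA1A and was at 0.142, 46.7, 0.338 and 2.47 FPKM in the Flag-TDP43 RIP, its input, the Flag-SRSF3 RIP and its input.

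The genes of the 7SK particle and of P-TEFb stayed within 2-fold in the FPKM table. Over all genes 15.1% were higher and 13.1% lower in the Flag-TDP43 RIP, and 14.1% and 6.78% in the Flag-SRSF3 RIP. Of 7 listed genes 6 passed the filter, and 0 of these were higher or lower in either RIP. The range was from MEPCE, which caps 7SK RNA, at -0.90 to HEXIM2, an inhibitor of P-TEFb, at 0.76 in the Flag-TDP43 RIP. In the Flag-SRSF3 RIP it was from LARP7, which binds the 7SK tail, at -0.11 to MEPCE at 0.63. In the second table MEPCE was lower in the Flag-TDP43 RIP (-1.44).

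RPPH1, the catalytic RNA of RNase P (ENSG00000277209, chromosome 14, 20343075 to 20343407), was low in both RIPs, like SRP RNA. It was at 155 FPKM in the Flag-TDP43 RIP and 53110 in its input, which is 340-fold lower. It was at 247 FPKM in the Flag-SRSF3 RIP and 60806 in its input, which is 245-fold lower. The log2 ratios were -8.41 (interval -8.49 to -8.33) and -7.94 (interval -8.00 to -7.88). The second table gave -8.66 and -8.22. The difference between the proteins was -0.47, and 38.8% of the other genes had a lower one. A second entry of the symbol (ENSG00000259001), a longer model over the same locus, held at most 2.56 FPKM. The nearest genes to RPPH1 by both ratios were the Metazoa_SRP entries of RN7SL2 (distance 0.35) and RN7SL3 (1.76), followed by the ribosomal protein gene RPL13A (3.44). The same genes in the same order were nearest to SRP RNA (0.83, 2.43 and 3.45).

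RMRP, the RNA of RNase MRP (ENSG00000277027, chromosome 9, 35657754 to 35658017), was the least abundant of these RNAs in the inputs and had a ratio closer to 0 than SRP RNA and RPPH1. It was at 441 FPKM in the Flag-TDP43 RIP and 6799 in its input, which is 15.4-fold lower. It was at 1825 FPKM in the Flag-SRSF3 RIP and 8642 in its input, which is 4.73-fold lower. The log2 ratios were -3.94 (interval -3.99 to -3.89) and -2.24 (interval -2.27 to -2.22), and the second table gave -4.07 and -2.41. The difference between the proteins was -1.70, and 12.7% of the other genes had a lower one. The level of RMRP was 0.128 and 0.142 times that of RPPH1 in the Flag-TDP43 and Flag-SRSF3 inputs, but 2.84 and 7.39 times in the RIPs. The related RNase RNAs thus changed their order of abundance between input and RIP in both experiments. The nearest genes to RMRP by both ratios were RN7SKP255 (0.73), the long noncoding RNA LRRC75A-AS1 (1.00) and RN7SKP203 (1.04).

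The ratios of the 4 RNAs fell into 2 ranges. SRP RNA and RPPH1 lay between -8.48 and -7.94 in both experiments, while RN7SK and RMRP lay between -5.03 and -1.80. In the Flag-TDP43 experiment 10 of 10031 other genes had a lower ratio than RN7SK and 28 a lower ratio than RMRP. In the Flag-SRSF3 experiment these were 178 and 93 genes. The order from the lowest ratio was RPPH1, SRP RNA, RN7SK and RMRP for Flag-TDP43, and SRP RNA, RPPH1, RMRP and RN7SK for Flag-SRSF3, in FPKM. With the inputs exchanged between the experiments the ratios were -5.12 and -1.71 for RN7SK, -8.60 and -7.74 for RPPH1 and -4.29 and -1.90 for RMRP. In the second table RPPH1 was lower than SRP RNA in both experiments (-8.66 against -8.58 and -8.22 against -7.80), so the order within that range is not settled.

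RMRP was the 1 gene of the 8 in the count table of the knockdown libraries, which lists protein-coding and lincRNA genes under GRCh37 coordinates (ENSG00000269900, chromosome 9, 35657748 to 35658015). This readout was not used to choose the genes. TARDBP fell by 2.15 (SE 0.13, edgeR quasi-likelihood adjusted p = 3.51e-08) in sh_TDP43, and SRSF3 fell by 2.78 (SE 0.10, adjusted p = 1.63e-10) in sh_SRSF3, both on the log2 scale. SRSF3 also fell by 1.23 in sh_TDP43 (SE 0.10, edgeR adjusted p = 3.05e-07). RMRP had 16 and 36 reads in the control libraries, 22 and 22 in sh_TDP43 and 4 and 6 in sh_SRSF3. Both sh_SRSF3 libraries lay below all others, while those of sh_TDP43 lay between the control libraries. In CPM, counts scaled to library size with TMM factors, these were 0.685 ± 0.360, 0.593 ± 0.0062 and 0.143 ± 0.033 (SD, n = 2 each). RMRP fell by 2.23 on the log2 scale in sh_SRSF3 (SE 0.67, edgeR adjusted p = 0.00941), where 34.4% of the 15026 genes tested were called lower. In sh_TDP43 its log2 change was -0.21 (SE 0.56, edgeR adjusted p = 0.786), and the difference between the knockdowns was not tested. The sh_SRSF3 call was lost without control replicate 2 (-1.56, adjusted p = 0.148) and without sh_SRSF3 replicate 1 (-2.02, adjusted p = 0.0644). The sh_TDP43 change was 0.45 without control replicate 2. The reads are few next to the estimated 51040 and 64237 RMRP reads of the Flag-TDP43 and Flag-SRSF3 inputs. These numbers come from different entries and ways of counting, so they do not show how much of this RNA the knockdown libraries held. Whether a change in these few reads follows the level of RMRP was not tested. In the RIP and input libraries the counted entry was at no more than 0.0027 FPKM, and the other entry over the same locus held the RMRP reads.

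**Figure D5:**
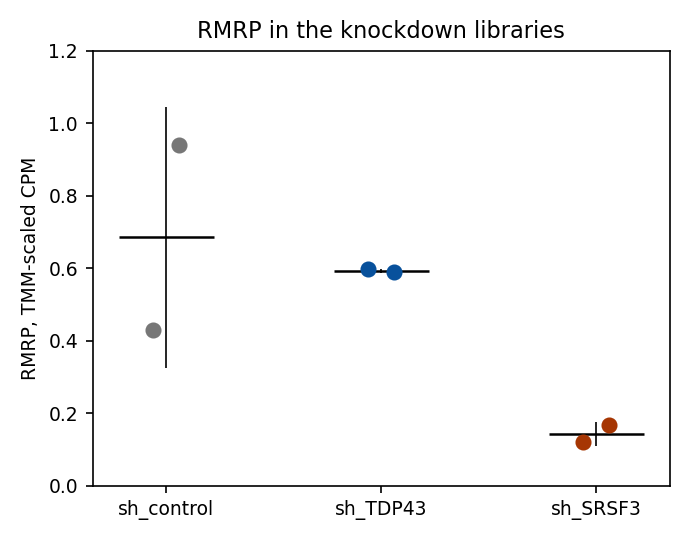
RMRP in TMM-scaled CPM (vertical axis from 0) in each knockdown library, with the mean as a horizontal line and the SD as a vertical line (n = 2 per group). The sh_SRSF3 libraries lie lowest, at a mean of 0.143, and the control libraries are far apart, with an SD of 0.360 around 0.685.

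Genes of the proteins in these particles and of the RNA polymerase III machinery were measured in both knockdowns, over lists of 59 genes that all passed the count filter. Of these, 29 are subunits or initiation factors of RNA polymerase III and 4 belong to the list of termination and repression. In sh_TDP43 12 of 59 were called higher (20.7% of all genes tested) and 15 lower (24.1% of all). With upper-quartile scaling the split was 15 higher and 12 lower, and over all genes it moved from 3105 higher and 3623 lower to 3956 and 2978. In sh_SRSF3 27 of 59 were higher (32.5% of all genes tested) and 11 lower (34.4% of all). With upper-quartile scaling these were 25 higher and 14 lower, and over all genes the split moved from 4881 higher and 5164 lower to 3959 and 6020. The median log2 change of the 59 genes was 0.01 in sh_TDP43 and 0.22 in sh_SRSF3, against -0.00 and -0.03 over all genes. The number called higher in sh_TDP43 was 7 without control replicate 2, 7 without sh_TDP43 replicate 1 and 6 without sh_TDP43 replicate 2. The number called lower was 10 without control replicate 1. Both comparisons share the control libraries.

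Among the SRP genes, 1 of 8 rose and 0 fell in sh_TDP43, where 20.7% of all genes tested rose and 24.1% fell. In sh_SRSF3 4 rose and 2 fell, where 32.5% and 34.4% of all genes did. SRP54, the GTPase that binds signal sequences, rose by 0.42 in sh_TDP43 (SE 0.10, edgeR adjusted p = 0.00312). In sh_SRSF3 it rose by 1.32 (SE 0.10, adjusted p = 5.17e-08). Its mean level was 74.9 ± 2.5 CPM in the controls, 101 ± 5.6 in sh_TDP43 and 187 ± 19 in sh_SRSF3 (SD, n = 2 each). In sh_SRSF3 the receptor subunit SRPRA rose by 0.70 (SE 0.09, edgeR adjusted p = 1.04e-05) and SRP68, an SRP RNA-binding protein, by 0.69 (SE 0.11, adjusted p = 4.92e-05).

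Of the 7SK and P-TEFb genes, 1 of 7 rose and 1 fell in sh_TDP43, where 20.7% of all genes tested rose and 24.1% fell. In sh_SRSF3 4 rose and 2 fell, where 32.5% and 34.4% of all genes did. CDK9, the kinase of P-TEFb, was at 80.2 ± 8.4 CPM in the controls, 98.8 ± 4.8 in sh_TDP43 and 147 ± 7.1 in sh_SRSF3 (SD, n = 2 each). CDK9 rose by 0.30 in sh_TDP43 (SE 0.10, edgeR adjusted p = 0.0235). The rise in sh_SRSF3 was 0.88 (SE 0.10, adjusted p = 2.83e-06). The P-TEFb inhibitor HEXIM1 fell by 0.31 in sh_TDP43 (SE 0.11, edgeR adjusted p = 0.0332). In sh_SRSF3 it fell too, with a log2 change of -0.52 (SE 0.11, adjusted p = 0.000738). Both sh_TDP43 calls depended on single libraries. Without control replicate 2 the CDK9 change was 0.19 with an adjusted p of 0.179. It was 0.35 (adjusted p = 0.0508) when sh_TDP43 replicate 1 was left out and 0.26 (adjusted p = 0.149) when replicate 2 was. The HEXIM1 value was -0.19 when control replicate 1 was left out (adjusted p = 0.219) and -0.20 when sh_TDP43 replicate 2 was (adjusted p = 0.282). Upper-quartile scaling gave it -0.21 with an adjusted p of 0.119. In sh_SRSF3 the related inhibitor HEXIM2 fell by 1.59 (SE 0.24, edgeR adjusted p = 3.72e-05) and the cyclin CCNT2 rose by 0.68 (SE 0.11, adjusted p = 8.63e-05).

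The proteins of RNase P and RNase MRP had 1 of 11 genes higher and 4 lower in sh_TDP43 (20.7% and 24.1% of all genes tested). In sh_SRSF3 they had 4 higher and 2 lower (32.5% and 34.4% of all). POP5 was at 22.2 ± 3.3 CPM in the controls, 9.49 ± 0.83 in sh_TDP43 and 9.16 ± 0.89 in sh_SRSF3 (SD, n = 2 each). It fell by 1.22 (SE 0.15, edgeR adjusted p = 2.58e-05) and by 1.28 (SE 0.16, adjusted p = 5.92e-06). POP1, the largest subunit of both enzymes, rose by 0.82 in sh_TDP43 (SE 0.12, edgeR adjusted p = 0.000113). RPP40 fell by 0.50 there (SE 0.15, edgeR adjusted p = 0.0144), a call lost without control replicate 1 (adjusted p = 0.0561) and without sh_TDP43 replicate 1 (adjusted p = 0.103). In sh_SRSF3 RPP25 fell by 1.41 (SE 0.13, edgeR adjusted p = 4.55e-07) and RPP14 rose by 1.01 (SE 0.11, adjusted p = 1.55e-06).

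In the RIPs all 11 RNase subunit genes passed the level filter. In the Flag-SRSF3 RIP 0 were lower, against 6.78% of all genes, and in the Flag-TDP43 RIP 5 were, against 13.1%. RPP21 was the lowest at -2.66 (0.455 against 8.22 FPKM), followed by RPP30 at -2.14, RPP40 at -2.09, RPP38 at -1.33 and POP7 at -1.16, while POP4 was the highest at 0.75. In the Flag-SRSF3 RIP the range was from POP1 at -0.56 to RPP25 at 0.76. The second table also had 5 lower genes in the Flag-TDP43 RIP (13.7% of its genes), and 1 in the Flag-SRSF3 RIP (7.14% of its genes). There RPP30 stood at -0.73 in the Flag-TDP43 RIP.

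The RNA polymerase III list held 29 subunits and initiation factors. In sh_TDP43 8 were higher and 9 lower (20.7% and 24.1% of all genes tested). POLR1D fell by 1.46 (SE 0.10, edgeR adjusted p = 1.49e-07), POLR3D by 1.18 (SE 0.10, adjusted p = 9.59e-07) and POLR3K by 1.17 (SE 0.18, adjusted p = 0.000112). POLR1D encodes a subunit shared by RNA polymerases I and III, and POLR3D and POLR3K encode subunits of RNA polymerase III alone. POLR1D was at 47.8 ± 0.46 CPM in the controls and 17.4 ± 1.1 in sh_TDP43 (SD, n = 2 each). BRF2, an initiation factor, rose by 1.12 in sh_TDP43 (SE 0.18, adjusted p = 0.00017), and BDP1, another, by 0.43 (SE 0.12, adjusted p = 0.0088). The BDP1 call was lost without control replicate 1 (0.27, adjusted p = 0.0873) and without sh_TDP43 replicate 1 (0.29, adjusted p = 0.124). In sh_SRSF3 12 were higher and 4 lower (32.5% and 34.4% of all genes tested). There BRF2 rose by 1.32 (SE 0.18, edgeR adjusted p = 1.45e-05) and BDP1 by 1.28 (SE 0.12, adjusted p = 4.01e-07). SNAPC1, a subunit of the complex that starts 7SK, RNase P, RNase MRP and U6 genes, rose by 1.25 (SE 0.09, edgeR adjusted p = 3.97e-08). Other subunits of that complex differed, with log2 changes of -1.08 for SNAPC2 (SE 0.15) and 1.22 for SNAPC5 (SE 0.14). SNAPC3 and SNAPC4 were both at 0.09 (SE 0.12 each). In sh_TDP43 SNAPC1 fell by 0.47 (SE 0.09). In the RIPs 27 of the 29 passed the filter. The Flag-TDP43 RIP had 4 higher and 2 lower (15.1% and 13.1% of all genes), from GTF3A at -1.83 to POLR3K (25.3 against 5.59 FPKM). The Flag-SRSF3 RIP had 1 of each (14.1% and 6.78% of all genes), from BRF2 at -1.08 to GTF3C2 at 1.14. In the second table these were -0.82 for GTF3A, 1.92 for POLR3K, -0.75 for BRF2 and 0.80 for GTF3C2. That table had 3 higher and 2 lower for Flag-TDP43, where 1470 of its 13228 genes were higher and 13.7% lower. For Flag-SRSF3 it had 0 higher and 2 lower, where 1123 of its genes were higher and 7.14% lower.

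The list of termination and repression held 4 genes, SSB, MAF1, LARP1 and LARP4, of which the La-related LARP1 and LARP4 are known as cytoplasmic mRNA-binding proteins. SSB encodes the La protein that binds the 3′ ends of new RNA polymerase III transcripts. SSB fell by 0.66 in sh_TDP43 (SE 0.09, edgeR adjusted p = 7.22e-05) and rose by 0.68 in sh_SRSF3 (SE 0.09, adjusted p = 1.88e-05). LARP4 rose by 0.49 (SE 0.09, edgeR adjusted p = 0.000442) and 1.14 (SE 0.09, adjusted p = 6.67e-08). MAF1, a repressor of RNA polymerase III, rose by 0.36 in sh_SRSF3 (SE 0.09, edgeR adjusted p = 0.0025). In sh_TDP43 the list had 1 gene higher and 1 lower (20.7% and 24.1% of all genes tested). In sh_SRSF3 it had 3 higher and 1 lower (32.5% and 34.4% of all). In the Flag-TDP43 RIP 1 was lower, from LARP1 at -2.02 to LARP4 at 0.60. In the Flag-SRSF3 RIP 2 were higher, from SSB at -0.68 to LARP1 at 4.49. The second table had LARP1 at 0.35 and 0.41, in the order Flag-TDP43 and Flag-SRSF3. Over all 5 lists 55 of 59 genes passed the filter in the RIPs, with 5 higher and 9 lower for Flag-TDP43, where 15.1% and 13.1% of all genes were. For Flag-SRSF3 these were 4 higher and 3 lower, where 14.1% and 6.78% of all genes were. The second table had 0 higher and 5 lower for Flag-SRSF3, where 1123 of its 13228 genes were higher and 7.14% lower.

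Other RNA polymerase III transcripts were low or at 0 in these libraries. All 17 genes of 5S rRNA were listed at 0 in the 4 libraries, and the 6 vault RNA, 3 Y RNA and 1 BCYRN1 genes had a mean below 1 FPKM each. The BCYRN1 entry is a gene model of 13458 bases, so its FPKM is no level of the short BC200 RNA. The 6 genes matched as U6 or U6atac, which are spliceosomal RNAs, summed to 17.7 FPKM in the Flag-TDP43 RIP and 3.52 in its input. They summed to 10.1 FPKM in the Flag-SRSF3 RIP and 4.07 in its input. RNU6-8 had log2 ratios of 2.73 and -0.74, and RNU6-2 had -0.69 and 1.78. In the Flag-TDP43 RIP and its input RNU6-8 was at 16.6 and 1.65 FPKM, and RNU6-2 at 0.610 and 1.59. In the Flag-SRSF3 RIP and its input these were 0.591 and 1.66 for RNU6-8, and 8.65 and 1.81 for RNU6-2. Over genes of 107 bases the lower of these levels rest on few reads. The 5S pseudogene RNA5SP202 had 1.64 and 1.55, and the U6 copy RNU6-817P had 1.28 and -1.49. Of 681 SRP RNA copies 3 reached a mean FPKM of 1, with RN7SL767P at -2.42 and -2.52, RN7SL674P at -2.67 and -1.42 and RN7SL208P at 0.96 and -0.27. The full-length entries of the 8 genes are 264 to 333 bases long, whereas the genes of 5S rRNA are 119 bases. The 6 of U6 or U6atac are 107 to 126 bases and the vault RNA genes are 89 to 127. Whether library preparation kept RNAs of these lengths was not tested.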

How the data were processed

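The authors deposited FPKM per gene for 4 RIP and input libraries, and a second table of the same libraries with a normalised signal of unstated unit. Both deposited tables also hold log2 fold changes by the authors. RIP coordinates match GRCh38 (RefSeq positions of the 8 genes). Per the file headers, the deposited knockdown values are read counts per gene from featureCounts 1.4.6-p5, without a strand option, so antisense or overlapping reads cannot be told apart. The submitters' processing notes name GRCh37, Cufflinks, HISAT2 2.0.5, STAR 2.5.2a and StringTie 1.3.0, with no role. Per the labels' protocols, libraries came from a TruSeq RNA kit.

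Entries of a symbol were summed and RIP ratios taken with a pseudocount of 1, with a minimum mean FPKM of 1 for counts over genes. Depth was inferred from FPKM times length of single-exon genes, of which 42.1% to 49.0% were whole multiples of 1 read within 0.02 reads, so shares of reads and intervals are estimates. With 1 library per group the RIPs carry no test. The knockdown test was that of edgeR 4.0.16 under R 4.3.3 (TMM, filterByExpr, two-sided quasi-likelihood F-test, 6 libraries in one fit), with calls at a Benjamini-Hochberg adjusted p under 0.05; the procedure was tested on simulated counts. Counted reads were 34457445 to 38326930 per library. DESeq2 1.42.0, a replicate block, other scalings and left-out libraries served as alternatives. Another 2 per-sample columns of the counts match no label and were not used.

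Members and gene lists were chosen with earlier results of these data known. Named are the 8 genes, the highest and lowest gene of each list in each RIP, the 3 called genes of each list with the largest change in each knockdown, up to 5 other RNA polymerase III transcripts of a kind, the 3 nearest genes to each RNA, TARDBP and SRSF3. RPP38, RPP30 and POP7 in the RIPs, BRF2 and BDP1 in sh_TDP43, HEXIM1 in sh_SRSF3, SCARNA2 and the markers were named after their values were seen. So were SNAPC1 in sh_TDP43 and SNAPC2, SNAPC3, SNAPC4 and SNAPC5 in sh_SRSF3. No sequence of the 8 genes is printed.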

Additional observations from a re-analysis of the deposited data

Results flagged for a closer look

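Among the SRP RNA entries, the named RNA polymerase III transcripts and the listed protein genes, 5 moved at least 2-fold in opposite directions in the RIPs. Of all 10040 genes 577 (5.75%) did so in FPKM. The RN7SL2 entry did so only in the second table, so the count of 5 is not directly comparable with this share. The 5 are listed as single cases, and their number was not tested against the share. Each ratio rests on 1 RIP and 1 input library, and the differences were not tested. The RN7SL2 entry (ENSG00000280102) had log2 ratios of -9.10 for Flag-TDP43 and 7.38 for Flag-SRSF3 in the second table, where its Flag-SRSF3 input signal was 0.534, and in FPKM it was at no more than 0.158. SRP9, which encodes an SRP protein, had 1.58 and -1.34 in FPKM, and 1.16 and -1.40 in the second table. LARP1, a La-related RNA-binding protein gene, had -2.02 and 4.49 in FPKM, but 0.35 and 0.41 in the second table. The 7SK copy RN7SKP71 had -4.10 and 6.14 in FPKM, with an input of 0.116 FPKM in the Flag-SRSF3 experiment and an input signal of 1950 in the second table. The U6 copy RNU6-817P had 1.28 and -1.49, at levels of at most 4.06 FPKM.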

How the results depend on the processing

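All 64 alternative values of the 8 RIP ratios kept their negative sign, and 30 stayed within the counting interval. The genes were chosen for these levels, and some alternatives repeat the main value, such as the highest entry for the single entry of RN7SK. These counts are therefore no test of the ratios. In the order Flag-TDP43 and Flag-SRSF3, the second table gave -8.58 and -7.80 for SRP RNA, -5.16 and -1.96 for RN7SK, -8.66 and -8.22 for RPPH1 and -4.07 and -2.41 for RMRP. The input of the other experiment gave -5.12 and -1.71 for RN7SK, -8.60 and -7.74 for RPPH1 and -4.29 and -1.90 for RMRP, and the mean of both inputs gave -5.08 and -1.76, -8.51 and -7.84, and -4.13 and -2.08. Centring on the median of all genes gave -8.62, -1.95, -8.08 and -2.39 for the Flag-SRSF3 ratios of SRP RNA, RN7SK, RPPH1 and RMRP, and differences of 0.63, -3.08, -0.32 and -1.55. The second table gave a difference of -3.19 for RN7SK. For SRP RNA the highest entry of each symbol gave -8.08 with a difference of 0.40, and the authors' deposited table gave -8.15 and -8.65 for RN7SL1. Alternatives added after seeing the data gave -8.08 and -8.13 with the Metazoa_SRP entries (difference 0.056), and, in the second table, -8.35 without RN7SL2 (difference 0.11) and -8.64 and -8.01 with the Metazoa_SRP entries (difference -0.63). The SRP RNA difference was also reversed to -0.78 in the second table as planned. RN7SK with its copies added gave -5.00 and -1.79, a difference of -3.21. Genes past 1.5-fold numbered 2630 higher and 2504 lower for Flag-TDP43 and 2857 and 1528 for Flag-SRSF3; past 4-fold these were 392, 263, 204 and 130, and a pseudocount of 0.1 gave 1049 lower for Flag-SRSF3. The cause of these shifts was not tested.

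Leaving out 1 library gave 1962 to 3008 genes higher and 2524 to 3605 lower in sh_TDP43, and 4137 to 4766 and 4612 to 5086 in sh_SRSF3. Of the 59 listed genes, 6 to 12 were then higher and 10 to 17 lower in sh_TDP43, and 25 to 29 and 8 to 13 in sh_SRSF3. RMRP in sh_TDP43 ranged from -0.67 without control replicate 1 to 0.45 without control replicate 2, a reversed sign. Where a group kept 1 library, that library is assumed to vary like the others. A fit with the replicate number as a block called 3570 genes higher and 4102 lower in sh_TDP43 and 5167 and 5398 in sh_SRSF3, and changed none of the calls named in the text. Deviations of same-numbered libraries correlated at 0.12, 0.08 and 0.09, so these libraries varied together only weakly. Whether they share a preparation is unstated. Precision is limited for RMRP by its 4 to 36 reads per knockdown library, and in the RIPs by the single library of each.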
